A study of Mus musculus with 9 samples.

Results

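The 31 genes described here encode the core machinery of programmed cell death and a panel of targets of the transcription factor p53. They were chosen by name as BCL2 family, caspase, death receptor and p53 target genes, by a rule that uses no measured value, though with earlier results of these data known, and all 31 were among the 53280 genes of the deposited count table. By role, 20 of them were listed as promoting cell death and 4 as restraining it. The other 7 are p53 (Trp53), its negative regulator Mdm2 and 5 further p53 targets, and were listed under neither role. All 31 genes were measured in the neural retina of mouse pups at postnatal day 4. The method was poly-A RNA sequencing of 5 Opn4 knockout and 4 wildtype pools. Opn4 encodes melanopsin, the photopigment of intrinsically photosensitive retinal ganglion cells. Pups of both genotypes were littermates born to heterozygous (Opn4+/-) parents, lived under standard lighting of about 300 lux, and were killed between ZT6 and ZT7, hours counted from lights on. Each pool held 4 retinas from 2 animals of a single genotype, so pools of a genotype came from separate animals. The labels name neither the strain, the sex of the pups, the litters behind a pool nor the part of Opn4 removed by the allele, and the allele was inherited, so it was not limited to a chosen cell type.

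In the mitochondrial pathway of apoptosis, BH3-only proteins such as BIM and PUMA bind the guardians BCL2, BCL-XL and MCL1 and set free the effectors BAX and BAK, which open the outer mitochondrial membrane. Released cytochrome c joins APAF1 to activate caspase-9, which cleaves the executioner caspases, and XIAP holds these caspases in check. p53 raises transcription of several of these genes and of Mdm2, whose product marks p53 for degradation. Waves of programmed cell death remove neurons from the postnatal mouse retina, and Bax is a known mediator of this loss. Transcript levels of this machinery do not report its activity, much of which is set by protein binding and cleavage.

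The targeted gene followed the labels. Opn4 lay at 1.07, 1.82, 1.15, 1.42 and 1.35 CPM (counts scaled to library size) in knockout pools 1 to 5 and at 11.8, 11.4, 12.03 and 11.6 CPM in wildtype pools 1 to 4. This left 11.6% of the wildtype level, with a log2 fold change, knockout minus wildtype throughout, of -3.10 (exact two-sided permutation test, p = 0.00794, the smallest that 126 splits of 9 pools allow). Totals ran from 65.5 to 86.1 M counts per pool (M, mega), and Pearson correlations of log2 CPM across genes were 0.981 to 0.985 within and 0.978 to 0.983 between genotypes. All 10 neural retina markers were detected, with a summed level of 3877 to 4198 CPM in knockout and 3759 to 3903 CPM in wildtype pools. Cell composition markers differed between genotypes: the summed level of 19 progenitor and cell cycle genes was 1952 to 2496 CPM in knockout and 3200 to 3332 CPM in wildtype pools, with 17 of 19 called lower, and that of 12 rod genes was 4296 to 5777 against 3692 to 4049 CPM, with 10 of 12 called higher. Knockout pools 1 and 2 had the lowest cell cycle, highest rod and highest lens sums of all 9 pools (lens 20.5 and 16.5 CPM, against 8.78 to 10.1 CPM in the others). Red blood cell RNA also separated the genotypes: 7 genes summed to 74.0 to 99.6 CPM in knockout and 110.5 to 337 CPM in wildtype pools, with 5 of 7 called lower and a median log2 fold change of -1.25. Wildtype pool 3 had the highest of these sums, and the next was 205 CPM. Microglia, which clear dying cells, showed no such separation: their 12 markers summed to 130 to 145 CPM in knockout and 130 to 159 CPM in wildtype pools, and 0 of the 12 were called by edgeR, DESeq2 or limma on TPM, with 0 at an unadjusted p under 0.05. In such bulk samples a change in the number of cells of a type and a change in RNA per cell cannot be told apart, and the part of cell composition in the results below was not tested.

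Transcripts of the death machinery were detected in every pool, Fas excepted, at levels that spanned about 3 orders of magnitude. Levels are compared between genes as TPM (abundance per unit of transcript length, scaled to the sample), summed over the transcript rows of a gene and averaged over the 9 pools, since this scale accounts for transcript length. Bax stood highest at 173.5 TPM, followed by Bcl2l1 (the gene of BCL-XL) at 117.6, Diablo at 83.3, Mcl1 at 75.5 and Mdm2 at 72.0 TPM. Trp53 itself lay at 55.4 and Xiap at 46.6 TPM. Among BH3-only genes, Bad (58.4 TPM) and Bbc3 (34.6 TPM) exceeded Bcl2l11 (17.7), Bid (12.8) and Bmf (11.004), while Hrk, Bik and Pmaip1 lay between 1.085 and 1.73 TPM. Bcl2, the founding member of the family, was the scarcest of the guardians at 2.82 TPM, and its ranges over pools did not reach those of Bcl2l1 or Mcl1. The listed members of the extrinsic arm were close to the lower end: Casp8 lay at 2.91, the TRAIL receptor gene Tnfrsf10b at 2.07 and Fas at 0.09 TPM. Other genes of death receptor signalling, not among the members, ran from 0.07 TPM for Tnf to 30.7 TPM for Ngfr. Fas received 22 counts in all, in 5 of 9 pools, and was the one member too low to test.

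**Figure D1:**
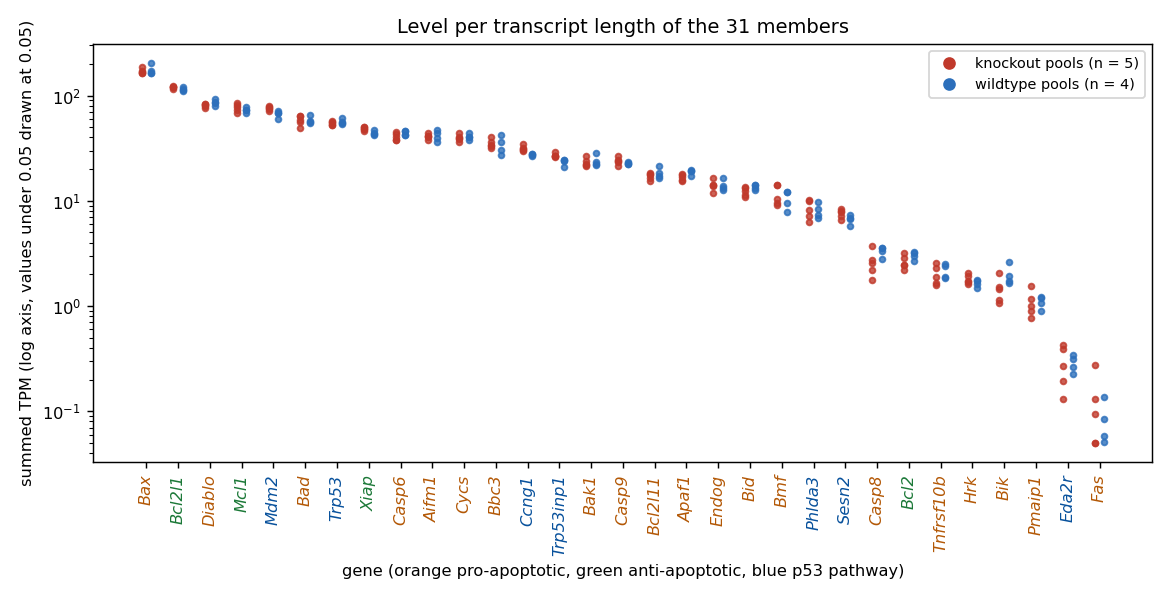
Summed TPM of each of the 31 genes in each of 9 pools, ordered by mean level (log axis; red, 5 knockout pools; blue, 4 wildtype pools; colour of the gene label, role). Bax is the highest at 173.5 TPM on average and Fas the lowest at 0.09 TPM, and the pools of both genotypes lie close together for the abundant genes.

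Differences between genotypes were few and small. Of the 30 members tested, Ccng1 and Trp53inp1, both p53 targets, rose in the knockout by under 1.2-fold, and no member fell (edgeR quasi-likelihood test, Benjamini-Hochberg adjusted p under 0.05 over 21150 genes). These 2 are 6.67% of the members tested, beside 3.59% of all genes called in either direction, 1.34% called higher and 2.25% called lower. In 4 members (13.3%) the CPM ranges of the genotypes did not overlap, against 8.29% of all genes (3.92% higher and 4.37% lower). Ccng1, Trp53inp1 and Xiap lay higher and Trp53 lower in knockout pools. At an unadjusted p under 0.05 there were 5 of 30 members, beside 16.5% of all genes. The median log2 fold change of the members was -0.03, with 11 above and 19 below 0, and that of all genes tested was 0.00 with 49.6% below 0. The data bounded most members tightly: the 95% confidence interval lay within a 1.5-fold change in either direction for 25 of 30 and within 1.2-fold for 16 of 30.

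**Figure D2:**
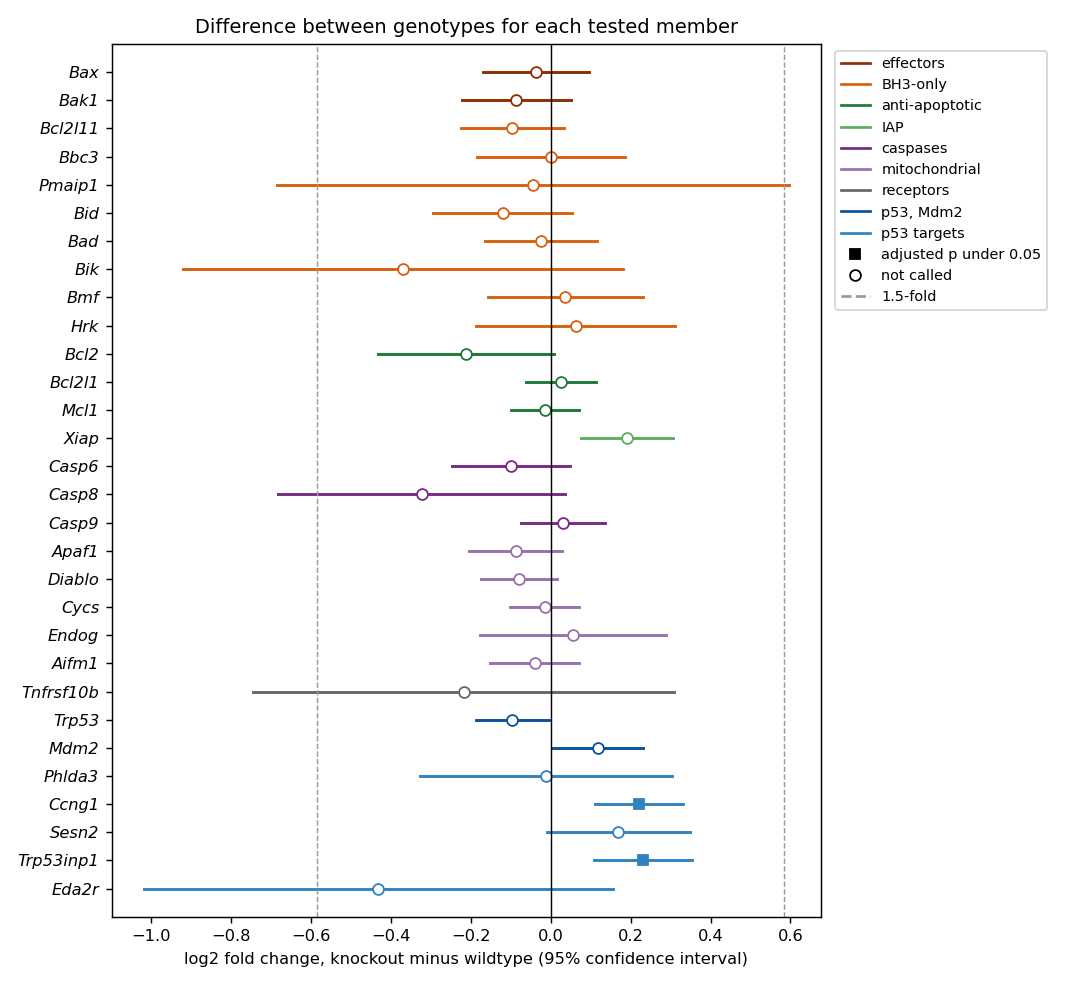
Log2 fold change of each of the 30 members tested, knockout minus wildtype, with its 95% confidence interval from edgeR (n = 5 and 4 pools; filled squares, adjusted p under 0.05; dashed lines, 1.5-fold). Ccng1 and Trp53inp1 are the filled squares at 0.22 and 0.23, and the widest intervals belong to the scarce Pmaip1, Eda2r, Bik and Tnfrsf10b.

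Ccng1 encodes cyclin G1, a p53 target that recruits a phosphatase to MDM2. It lay at 62.8, 63.3, 70.0, 59.6 and 63.1 CPM in knockout pools 1 to 5 and at 55.5, 56.5, 52.0 and 54.7 CPM in wildtype pools 1 to 4. Every knockout pool stood above every wildtype pool, with means of 63.7 ± 3.79 (SD, n = 5) and 54.7 ± 1.94 CPM (SD, n = 4). The log2 fold change was 0.22 (SE 0.05), a rise of 16.6% (edgeR adjusted p = 0.0295). Trp53inp1 encodes a stress-induced nuclear protein that promotes p53 activity and autophagy. Its knockout pools 1 to 5 held 82.3, 80.4, 80.9, 79.4 and 77.2 CPM and its wildtype pools 72.0, 72.7, 59.3 and 69.0 CPM. The knockout pools were tightly grouped above all wildtype pools, of which pool 3 was the lowest. Means were 80.0 ± 1.91 and 68.2 ± 6.17 CPM, with a log2 fold change of 0.23 (SE 0.06, edgeR adjusted p = 0.0418).

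Both calls were close to the threshold. Leaving out single pools gave Ccng1 log2 fold changes of 0.18 to 0.24 with adjusted p from 0.0265 to 0.083, and ended the call without any of 6 pools (knockout 2 and 3 and each of the 4 wildtype pools). Trp53inp1 ranged from 0.17 to 0.26 with adjusted p from 0.0327 to 0.0958, and its call ended without any of 6 pools (knockout 1 to 4 and wildtype 1 and 4). Without wildtype pool 3, Ccng1 had a log2 fold change of 0.20 (edgeR adjusted p = 0.0667) and Trp53inp1 one of 0.17 (adjusted p = 0.0327). Without knockout pools 1 and 2 together the values were 0.23 (adjusted p = 0.0876) and 0.21 (adjusted p = 0.15), and no member was called. On the gene-summed TPM of the same libraries limma called 0 of 29 members measured (2.16% of all genes), with 5 at an unadjusted p under 0.05 and Ccng1 lowest at an adjusted p of 0.0873 and a log2 fold change of 0.20. In the authors' deposited table Ccng1 had a q of 0.0762 and Trp53inp1 a q of 0.166, and none of 30 members had a q under 0.05, beside 1.46% of all its genes.

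The remaining p53 genes did not pass the test. Trp53 lay at 51.2, 51.9, 48.4, 51.9 and 51.4 CPM in knockout pools 1 to 5 and at 55.0, 53.6, 56.1 and 53.2 CPM in wildtype pools 1 to 4. The ranges did not overlap, but the difference was small, with a log2 fold change of -0.10 (SE 0.04, edgeR adjusted p = 0.274). On the TPM scale the 2 genotypes had 54.6 ± 2.02 and 56.3 ± 3.07 TPM. Mdm2 was at 98.9, 91.6, 95.2, 104 and 97.6 CPM in knockout and at 95.5, 94.7, 83.6 and 85.8 CPM in wildtype pools. The lower values were in wildtype pools 3 and 4, and the log2 fold change was 0.12 (edgeR adjusted p = 0.285). Its gene-summed TPM ran from 71.9 to 80.4 in knockout and from 60.45 to 71.7 in wildtype pools. On that scale the ranges did not overlap, by a narrow margin. The log2 fold change of Mdm2 was 0.18 there, and limma did not call it. Sesn2, a stress sensor that restrains mTORC1, was at 13.9 to 16.1 CPM against 11.6 to 14.6 CPM, with overlapping pools and a log2 fold change of 0.17 (edgeR adjusted p = 0.334). Phlda3, an inhibitor of AKT, stood at 4.68 ± 0.892 and 4.72 ± 0.488 CPM. Eda2r, a receptor for ectodysplasin A2, was one of 2 tested members under 1 CPM, at 0.440 ± 0.0941 and 0.595 ± 0.0874 CPM. Its interval of -1.02 to 0.15 on the log2 scale was wide toward lower levels in the knockout and reached little above 0.

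**Figure D3:**
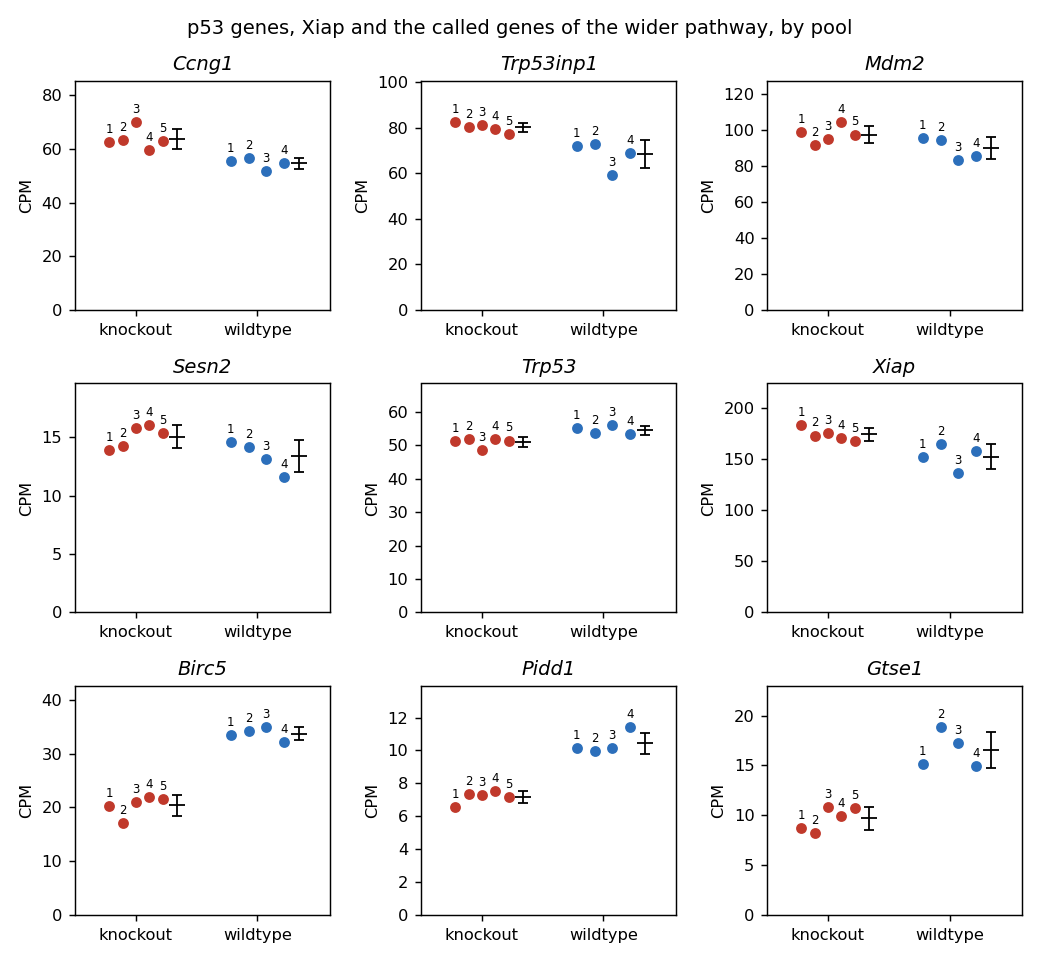
CPM of Ccng1, Trp53inp1, Mdm2, Sesn2, Trp53 and Xiap and of the pathway genes Birc5, Pidd1 and Gtse1 in 5 knockout (red) and 4 wildtype (blue) pools, numbered by pool (bars, mean; whiskers, SD; axes start at 0). Knockout pools are all above the wildtype pools for Ccng1, Trp53inp1 and Xiap and all below them for Trp53, Birc5, Pidd1 and Gtse1.

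The promoters of the p53 genes are shown because the called Ccng1 carries the closest match to the p53 element among the members searched. This choice was made after the values were seen. Sequences were taken from RefSeq windows of build GRCm38.p6, from 250 bases before to 50 after each annotated start, for the 27 members with an entry (37 windows, as some genes have several starts). Trp53inp1, Bik, Tnfrsf10b and Pmaip1 had none. The motif searched was the p53 half-site consensus of 10 bases, which is its own reverse complement and so covers both strands. Capitals below mark the matched bases, given 5′ to 3′ on the strand of the gene with 40 bases on each side.
Ccng1, chr11:40755422-40755521, minus strand: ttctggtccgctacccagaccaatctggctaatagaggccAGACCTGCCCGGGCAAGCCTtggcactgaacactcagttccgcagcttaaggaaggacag
Bax, chr7:45467039-45467139, minus strand: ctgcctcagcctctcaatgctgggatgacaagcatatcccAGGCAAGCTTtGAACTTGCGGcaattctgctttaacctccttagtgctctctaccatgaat
Mdm2, chr10:117710895-117710984, minus strand: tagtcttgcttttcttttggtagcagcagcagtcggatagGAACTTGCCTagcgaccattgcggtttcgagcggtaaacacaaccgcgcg
Trp53, chr11:69580244-69580333, plus strand: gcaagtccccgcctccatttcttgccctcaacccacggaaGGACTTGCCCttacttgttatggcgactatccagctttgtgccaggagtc
In Ccng1 the capitals lie 195 to 176 bases before the start and hold 2 adjoining half-sites with 1 mismatch in all. A full site, 2 half-sites up to 13 bases apart, with at most 1 mismatch stood in this window alone among the 37 and in 0.627% of 32851 windows genome-wide. The Bax pair, 201 to 181 bases before its start, has a spacer of 1 base and 2 mismatches, a quality reached by 4.085% of all windows. Within their windows Mdm2 and Trp53 each hold a single exact half-site. Sequence outside the windows, such as introns and other promoters, was not searched for any gene. An exact half-site was found in 5 of 37 member windows (13.5%) and in 8.36% of all windows, the fifth being that of Bmf. These matches describe letters within a window, and their part in any difference between genotypes was not tested. The other called member, Trp53inp1, had no window to search.

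**Figure D4:**
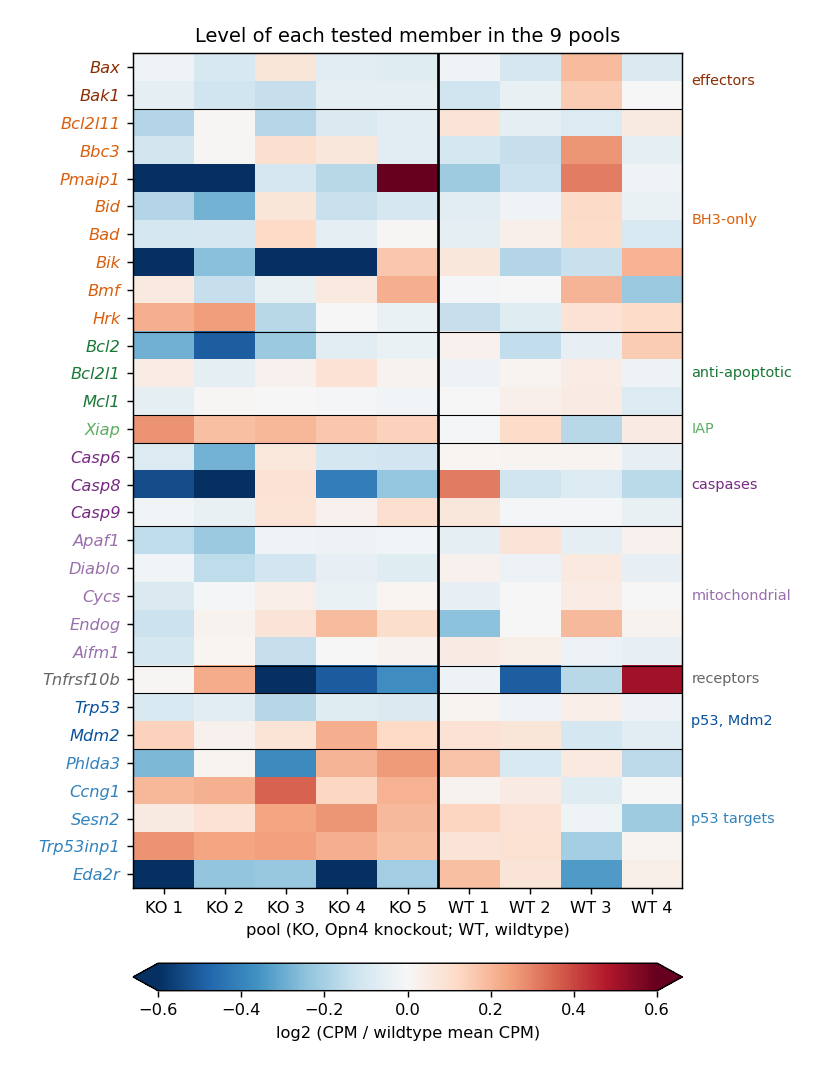
Log2 of CPM over the wildtype mean for each of the 30 members tested (rows, grouped by role) in each of 9 pools (columns), with the colour scale clipped at ±0.6. Ccng1, Trp53inp1, Xiap, Mdm2 and Sesn2 are above 0 in all 5 knockout pools. Trp53, Bcl2, Bak1, Apaf1, Diablo and Eda2r are below 0 in all 5. The widest scatter is in the scarce Pmaip1, Bik, Casp8, Tnfrsf10b and Eda2r.

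The effectors did not differ detectably. Bax lay at 68.0, 64.6, 72.6, 65.9 and 65.7 CPM in knockout pools 1 to 5 and at 68.0, 64.3, 78.8 and 65.1 CPM in wildtype pools 1 to 4. Pool 3 of the wildtype was the highest and the others coincided with the knockout pools. The log2 fold change was -0.04 with a 95% interval of -0.17 to 0.10 (edgeR adjusted p = 0.840). Bak1 was at 24.5 ± 0.672 and 26.0 ± 2.13 CPM, a log2 fold change of -0.09 with a 95% interval of -0.22 to 0.05. Of the 8 BH3-only genes 0 passed the test, and log2 fold changes ran from -0.37 for Bik to 0.06 for Hrk. Bcl2l11 (BIM), which neurons deprived of trophic factors induce, held 28.9, 32.9, 29.1, 30.8 and 31.3 CPM in knockout and 34.5, 31.5, 30.9 and 34.0 CPM in wildtype pools, with overlapping ranges and a log2 fold change of -0.10 (edgeR adjusted p = 0.471). Bbc3, the gene of the p53 target PUMA, had equal means of 22.1 ± 1.33 and 22.1 ± 2.98 CPM, with a 95% interval of -0.18 to 0.19 around a log2 fold change of 0.00. Pmaip1, the gene of NOXA and another p53 target, was low at 1.34 ± 0.666 and 1.39 ± 0.229 CPM, and its interval of -0.69 to 0.60 was the widest among BH3-only genes. Bid, Bad and Bmf lay between 13.4 and 29.2 CPM with log2 fold changes of -0.12, -0.02 and 0.04.

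Among the guardians, the abundant Bcl2l1 and Mcl1 were nearly level between genotypes. Bcl2l1 held 131, 122, 129, 135 and 129 CPM in knockout pools 1 to 5 and 124, 128, 131 and 124 CPM in wildtype pools 1 to 4 (log2 fold change 0.03, 95% interval -0.06 to 0.11). Mcl1 held 135, 141, 141, 139 and 139 CPM against 140, 143, 145 and 133 CPM (log2 fold change -0.01, 95% interval -0.10 to 0.07). Both intervals lie within a 1.2-fold difference. The scarcer Bcl2 was at 10.1, 8.72, 10.5, 11.8 and 11.9 CPM in knockout and 12.5, 11.1, 11.9 and 13.7 CPM in wildtype pools. Knockout pools 1 to 3 lay under every wildtype pool and pools 4 and 5 within their range, with a log2 fold change of -0.21 (SE 0.10, edgeR adjusted p = 0.327). Without knockout pools 1 and 2 this value was -0.11.

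Xiap, the caspase inhibitor, separated the genotypes without passing the threshold. It held 183, 173, 175, 171 and 168 CPM in knockout pools 1 to 5 and 151, 164, 136 and 158 CPM in wildtype pools 1 to 4. All knockout pools stood above all wildtype pools, with a log2 fold change of 0.19 (SE 0.05, edgeR adjusted p = 0.0757, and 0.0513 to 0.169 with single pools left out). DESeq2 called it with an adjusted p of 0.013, and without wildtype pool 3 the log2 fold change was 0.14 (edgeR adjusted p = 0.108). Its gene-summed TPM was 48.7 ± 2.13 and 44.1 ± 2.28. The deposited TPM table lists 11 transcript rows for Xiap, without transcript identifiers, and the row with the highest mean is described here, a choice made after its values were seen. It held 24.9, 26.1, 31.8, 28.2 and 30.2 TPM in knockout pools 1 to 5 and 20.9, 21.2, 18.4 and 20.5 TPM in wildtype pools 1 to 4. The other rows together ran from 17.5 to 25.9 TPM in knockout and from 22.2 to 26.1 TPM in wildtype pools. The leading row therefore took 49.0, 54.4, 62.7, 61.7 and 62.7% of Xiap TPM in knockout pools and 48.5, 44.9, 43.7 and 46.7% in wildtype pools, with knockout pool 1 just above wildtype pool 1. Of the 27 members with more than 1 row whose share could be compared, Xiap was the one whose genotypes did not overlap, beside 1.89% of all such genes. The leading row itself was higher without overlap in 2 of 29 members, Xiap and Ccng1, beside 4.03% of all genes, and lower in 0, beside 3.75%. These rows are estimates that divide reads between similar transcripts and were not tested.

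None of the 3 caspases and none of the 5 apoptosome and mitochondrial genes passed the test. Casp9, the initiator caspase of the mitochondrial pathway, held 45.5, 44.7, 48.8, 46.9 and 49.5 CPM in knockout and 48.3, 45.8, 45.7 and 44.6 CPM in wildtype pools, a log2 fold change of 0.03 (95% interval -0.07 to 0.13). Casp6, an executioner linked to axon degeneration, was at 22.3 ± 1.89 and 24.0 ± 0.549 CPM. Casp8, the initiator of the death receptor pathway, was at 2.43, 2.28, 3.74, 2.64 and 2.996 CPM against 4.36, 3.24, 3.33 and 3.14 CPM. One knockout pool, the third, lay among the wildtype pools and the other 4 below them, with a log2 fold change of -0.32 (SE 0.17, edgeR adjusted p = 0.364). Apaf1, the apoptosome scaffold, was at 58.1 ± 3.68 and 61.7 ± 2.73 CPM, and Diablo (SMAC), which relieves XIAP inhibition, at 60.8 ± 2.23 and 64.2 ± 2.26 CPM. Their log2 fold changes were -0.09 and -0.08 (edgeR adjusted p = 0.469 and 0.399). Cycs (cytochrome c), Aifm1 and Endog, which are released from mitochondria, had log2 fold changes of -0.02, -0.04 and 0.06. Tnfrsf10b was at 1.17 ± 0.2998 and 1.36 ± 0.411 CPM with a 95% interval of -0.75 to 0.31. Several of these genes share sequence or exons with others: Cycs has a near-identical copy, Gm10053, that received 10060 counts against 57882 for Cycs, and Casp8 matches Gm20257 with 222 against 2201 counts. Exons of Endog, Bak1, Diablo, Bad and Bid overlap a gene on the opposite strand over 17.7 to 35.7% of their bases, and the sources used here do not say whether counting used strand, so values of all 7 genes are uncertain to that extent.

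Set against each other, pro-apoptotic and anti-apoptotic members differed little between genotypes, and whether the pools overlapped depended on the scale. The 19 pro-apoptotic genes tested held 0 calls, 0 at an unadjusted p under 0.05 by edgeR, 0 calls by DESeq2 and 0 non-overlapping ranges, with a median log2 fold change of -0.04 and 14 of 19 below 0. The 4 anti-apoptotic genes held 0 edgeR calls, 1 at an unadjusted p under 0.05 and 1 non-overlapping range, both of them Xiap, and 1 DESeq2 call, again Xiap, with a median of 0.01 and 2 of 4 below 0. The 7 p53 genes, including the called Ccng1 and Trp53inp1, were listed under neither role and are in neither of these counts. The mean log2 CPM of the pro-apoptotic genes was 3.82, 3.82, 3.88, 3.84 and 3.97 in knockout pools 1 to 5 and 3.93, 3.89, 4.02 and 3.96 in wildtype pools 1 to 4. Knockout pools were mostly lower, with pool 5 inside the wildtype range. The anti-apoptotic mean was 6.24 ± 0.05 in knockout and 6.25 ± 0.02 in wildtype pools. The difference between both means, pro minus anti, was -2.38 ± 0.06 (SD, n = 5) and -2.30 ± 0.07 (SD, n = 4), a shift of -0.08 with overlapping pools. On the log2 TPM scale the same difference was -1.15, -1.14, -1.17, -1.19 and -1.17 in knockout pools 1 to 5 and -1.10, -1.08, -1.02 and -1.10 in wildtype pools 1 to 4, a shift of -0.09 in which every knockout pool lay below every wildtype pool by a narrow margin. Each gene counts equally in these means, so scarce genes such as Bik and Casp8, with the largest negative values, weigh as much as Bax. No test was made of such averages, because the genes were named with results of these data known.

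Ratios of single pairs gave no common direction. The log2 ratio of Bax to Bcl2 was 2.67 ± 0.19 in knockout and 2.49 ± 0.20 in wildtype pools, and that of Bax to Bcl2l1 was -0.94 ± 0.07 and -0.88 ± 0.11. Bcl2l11 to Mcl1 stood at -2.18 ± 0.07 and -2.10 ± 0.13, and Casp9 to Xiap at -1.88 ± 0.10 and -1.72 ± 0.13. The first of these was higher and the other 3 lower in the knockout, and pools of both genotypes overlapped in all 4.

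**Figure D5:**
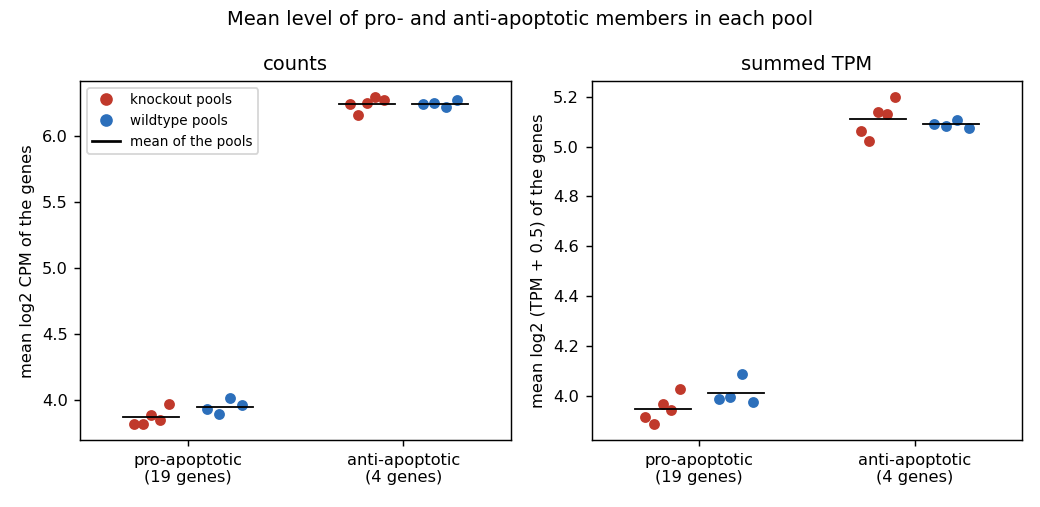
Per-pool mean log2 level of the 19 pro-apoptotic and 4 anti-apoptotic genes (red, 5 knockout pools; blue, 4 wildtype pools; bars, mean). Pools of both genotypes overlap in both means, on the log2 CPM and on the log2 TPM scale. The difference of both means, pro minus anti, overlaps on log2 CPM, at -2.38 in knockout and -2.30 in wildtype pools. On log2 TPM it is -1.16 and -1.08, and every knockout pool lies below every wildtype pool.

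Beyond the members, 70 further genes of apoptosis and the p53 pathway were in the count table and 62 of them were tested. By edgeR 0 rose and 3 fell (4.84% called, beside 3.59% of all genes), with a median log2 fold change of 0.00. DESeq2 called 2 higher and 5 lower, beside 4.31% of all 34490 genes in its fit called in either direction. Limma on TPM called 1 higher and 3 lower, beside 2.16% of all genes it tested. Ranges did not overlap in 10 of 62 genes (16.1%, beside 8.29% of all genes), and 20 of 62 had an unadjusted edgeR p under 0.05 (32.3%, beside 16.5% of all genes). The other BCL2 family and BNIP3 genes held 0 calls of 7 by edgeR (2 at an unadjusted p under 0.05), the other caspases 0 of 5 (2 unadjusted) and the p53 family and regulators 0 of 8 (0 unadjusted). DESeq2 called 1, 0 and 0 genes of these lists and limma on TPM 0 in each. In the list of IAP genes, FLIP and IAP antagonists 1 of 6 fell by edgeR (3 unadjusted), in death receptor signalling 1 of 11 (4 unadjusted), and among 25 other p53 targets 1 (9 unadjusted, 36%). The p53 target list had a median log2 fold change of 0.00, with 13 genes above and 12 below 0, and 0 of 25 were called higher by edgeR, 2 by DESeq2 and 1 by limma on TPM.

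The 3 genes that fell are linked to cell division or to a specialised caspase complex. Birc5 encodes survivin, an IAP family protein that serves in the chromosomal passenger complex of mitosis. It held 20.2, 17.1, 21.0, 21.9 and 21.5 CPM in knockout pools 1 to 5 and 33.5, 34.3, 34.9 and 32.1 CPM in wildtype pools 1 to 4. The groups were far apart, with a log2 fold change of -0.73 (SE 0.07, edgeR adjusted p = 0.000195). Gtse1, whose product is expressed in G2 and S phase and binds p53, held 8.73, 8.19, 10.8, 9.97 and 10.8 CPM against 15.2, 18.8, 17.3 and 14.9 CPM, a log2 fold change of -0.77 (SE 0.10, edgeR adjusted p = 0.00103). Pidd1, a p53 target whose product assembles the PIDDosome that activates caspase-2, held 6.57, 7.36, 7.27, 7.53 and 7.15 CPM against 10.2, 9.99, 10.2 and 11.4 CPM, a log2 fold change of -0.54 (SE 0.08, edgeR adjusted p = 0.00209). All 3 calls held with each single pool left out and without knockout pools 1 and 2 (log2 fold changes -0.65, -0.66 and -0.51 for Birc5, Gtse1 and Pidd1). In the authors' deposited table their q-values were 0.00467, 0.0140 and 0.00013. The summed level of the 19 progenitor and cell cycle markers was likewise lower in every knockout than in every wildtype pool, as given above, and its part in these 3 differences was not tested. The partners of Pidd1 in the PIDDosome, Casp2 and Cradd, were not called. Casp2 was at 50.3 ± 1.04 and 55.4 ± 3.76 CPM, with a log2 fold change of -0.14 (edgeR unadjusted p = 0.0158, adjusted p = 0.173). Its gene-summed TPM ran from 32.5 to 34.5 in knockout and from 35.8 to 42.1 in wildtype pools, without overlap (limma adjusted p = 0.0949). Cradd had a log2 fold change of 0.01 (edgeR adjusted p = 0.971).

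A further 4 genes of these lists missed the edgeR threshold and were called by DESeq2, a group picked after their values were seen. Ngfr, the p75 neurotrophin receptor, had a log2 fold change of -0.22 (edgeR adjusted p = 0.0584) and Bcl2l12 one of -0.33 (adjusted p = 0.0778), both with non-overlapping pools. Trp53inp2, the paralog of Trp53inp1, was at 159 ± 8.12 and 140 ± 9.56 CPM, higher without overlap, with a log2 fold change of 0.19 (edgeR adjusted p = 0.0840). Tigar, a p53 target that lowers glycolytic flux, was at 21.3 ± 2.17 and 17.2 ± 1.605 CPM with a log2 fold change of 0.31 (edgeR adjusted p = 0.0802), and on gene-summed TPM it passed with 0.43 (limma adjusted p = 0.0313).

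Positions of the genes named most are given from GENCODE M21 on GRCm38, and all are annotated as protein-coding. Ccng1 spans chr11:40748552-40755311, Trp53inp1 chr4:11156431-11174379, Xiap chrX:42059679-42109656, Trp53 chr11:69580359-69591873, Mdm2 chr10:117688875-117710758, Bax chr7:45461697-45466898 and Birc5 chr11:117849251-117855743.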

How the data were processed

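The members and gene lists were chosen with earlier results of these data known. The authors deposited whole-number counts per gene, unnormalised, and the sources used here do not name the counting program; their totals exceed the depth the submitters state. The deposited TPM, treated as a length-scaled signal, came from kallisto 0.46.1 on GRCm38 after Trimmomatic 0.39, per the submitters' processing notes, and columns sum to 953963 to 1083977, so the authors' values were rescaled in an undescribed way. The authors' deposited table, from sleuth 0.30.8 per the same notes, holds p-values, q-values, effects on the natural log scale and standard errors as a score, with the sign reversed here to knockout minus wildtype and converted to log2.

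Counts were tested with edgeR 4.0.16 (filterByExpr, TMM, quasi-likelihood F test, two-sided, Benjamini-Hochberg over 21150 genes, threshold 0.05) in R 4.3.3, on 5 against 4 pools without covariates. Log2 CPM used a prior count of 2. Standard errors and intervals came from the F statistic and its degrees of freedom. TPM were summed per symbol and tested with limma 3.58.1 on log2(TPM + 0.5) for genes of at least 1 TPM in at least 4 pools. DESeq2 1.42.0, other scalings and filters, a block and left-out pools were alternatives. No pair of pools within a genotype agreed within counting noise. On simulated counts the edgeR test recovered 14% of genes changed 1.2-fold, 52% at 1.5-fold and 80% at 2-fold, and called 7 of 20468 unchanged genes. The simulation changed 50 genes at each fold, drawn at random from 21150 at any level. Of the 30 members tested, 22 had a mean over 10 CPM, so these shares are not rates for the members. Genes named in full were those called, those with non-overlapping ranges and the most abundant of each role, plus every called gene of the other lists. Copies were genes at 95% identity or more over at least 50% of their length.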

Additional observations from a re-analysis of the deposited data

Results flagged for a closer look

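In 4 of 70 groups of pools, 1 pool lay far from the others of its genotype, and chance alone marks about 1 in 20 groups. Casp6 was at 23.1 CPM in wildtype pool 4, against 24.2 to 24.3 CPM in the other wildtype pools. Casp8 was at 4.36 CPM in wildtype pool 1, against 3.14 to 3.33 CPM. Trp53 was at 48.4 CPM in knockout pool 3, against 51.2 to 51.9 CPM in the other knockout pools, and without that pool its log2 fold change stayed within -0.11 to -0.08, the range over all single pools left out. Pidd1 was at 11.4 CPM in wildtype pool 4, against 9.99 to 10.2 CPM, and its call held without that pool.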

How the results depend on the processing

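The 2 member calls depended on the analysis: there were 0 without the low-count filter (Ccng1 adjusted p = 0.0574, Trp53inp1 0.0914) and 0 without knockout pools 1 and 2, 3 with DESeq2, which added Xiap, and 0 to 2 with single pools left out, while no alternative called a member lower. Over all genes, 760 calls (284 higher, 476 lower) became 549 (152 higher) without the filter, 486 (134 higher) without knockout pools 1 and 2, 1487 (669 higher, 818 lower) with DESeq2 and 524 to 859 (153 to 347 higher, 359 to 512 lower) with single pools left out. The DESeq2 calls were 4.31% of the 34490 genes in its fit, beside 3.59% of 21150 genes in the main fit. Calls in the pathway lists went from 3 to 7 (5 lower) with DESeq2 and 3 to 6 (3 to 4 lower) with single pools left out. Non-overlapping members numbered 4 to 7, the shift of pro minus anti log2 CPM ran from -0.10 to -0.05 and Opn4 from -3.23 to -3.03. Pools of equal number did not deviate together (correlations -0.03 to 0.01). This check has no reference distribution, so it cannot exclude that such pools share litters. A fit with the replicate number as a block left out knockout pool 5 for want of a partner. It gave 915 calls, 7 in the pathway lists and 1 member, Trp53inp1. Signs changed only in genes that were not called. Bbc3 became -0.0079 with library totals, -0.0095 without the filter, -0.0013 with a mean CPM of at least 1 and -0.0031 with DESeq2, and Bmf became -0.011 with the block. Without knockout pools 1 and 2, Pmaip1 became 0.27, Bad 0.022, Hrk -0.069, Cycs 0.0011 and Phlda3 0.051. With single pools left out, log2 fold changes ran from -0.073 to 0.034 for Bax, -0.047 to 0.10 for Bbc3, -0.39 to 0.097 for Pmaip1, -0.066 to 0.014 for Bad, -0.034 to 0.11 for Bmf, -0.044 to 0.0030 for Mcl1, -0.035 to 0.0020 for Cycs, -0.021 to 0.13 for Endog and -0.092 to 0.062 for Phlda3. The cause of these shifts was not tested, apart from fewer pools or other genes tested. Intervals reached past 1.5-fold for Pmaip1, Bik, Casp8, Eda2r and Tnfrsf10b, all under 5 CPM, and whether depth or spread between pools set their width was not tested.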
